A study of Homo sapiens with 11 samples.

Results

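Ribosome biogenesis and nucleolar genes were examined in the human line MOLM-13, whose acute myeloid leukemia carries a KMT2A rearrangement, after inhibition of Menin alone or together with the immunoproteasome. The set holds 42 genes, taken by symbol from the 38557 genes of the count table. These genes were chosen with earlier results of these data known. Of the 42, 41 were among the 14683 genes with enough counts to be tested. The exception was RRN3. All cells were cultured for 72 h. In 4 libraries they received the solvent DMSO, in 4 libraries 1 µM MI-503 (an inhibitor of Menin, the partner protein through which KMT2A fusions reach chromatin), and in 3 libraries, numbered 1, 2 and 4, the same dose of MI-503 plus 100 nM PR-957, which blocks PSMB8, a catalytic immunoproteasome subunit. The last group is called the combination. No library of the series held PR-957 alone, so in these data that compound was measured only on top of MI-503.

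A ribosome is built in the nucleolus. RNA polymerase I transcribes the ribosomal RNA precursor, small nucleolar ribonucleoproteins (snoRNPs) guide its cleavage and the modification of its bases, and a large set of assembly factors folds and trims the precursors of the small and the large subunit. The transcription factor MYC is known to raise many of these genes, often through the E-box CACGTG in their promoters, and growing leukemia cells depend on this output.

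The E-box was therefore looked up in the RefSeq promoter windows of build GRCh38.p14, which reach from 250 bases before to 50 bases after each start. The motif reads the same on both strands and was searched as CACGTG only. Of the 36 members with a window, 14 (38.9%) held it, against 7.43% of all 27305 windows and 9.99% of the 10694 windows of tested genes. The windows of NOP58, NOLC1, RRP12, BOP1, RRS1 and DDX18 were not used here. The stretches printed next belong to the 3 members with the motif that fell most in the combination against DMSO, with the E-box in capitals. That of EBNA1BP2 lies at chr1:43172775-43172820 on the minus strand, that of UTP20 at chr12:101280068-101280104 on the plus strand and that of PNO1 at chr2:68157885-68157914 on the plus strand.
EBNA1BP2: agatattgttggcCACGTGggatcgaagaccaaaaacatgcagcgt
UTP20: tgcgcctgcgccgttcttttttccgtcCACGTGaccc
PNO1: ggtgcagctgcgCACGTGtttcagccggca
The first base of the E-box stood at -237 in EBNA1BP2, at -10 in UTP20 and at 10 in PNO1, counted from the start that each window uses. For PNO1 that start differs from the first base of the annotated gene given below. Between the combination and DMSO the median log2 fold change was -0.71 in the 14 members with the motif and -0.75 in the 21 tested members without it, and with MI-503 alone the medians were -0.47 and -0.40. The windows of NOP16, DDX21 and LYAR held no E-box. In the combination against DMSO these genes changed by -1.15, -1.02 and -0.99, more than PNO1 (-0.98). A match of these letters is a description and not a measured binding site.

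Each library held 18.9 to 41.2 M counted fragments. The labels do not say whether the replicates were separate cultures, so the p-values given measure the spread between these libraries, which may be technical. All 8 myeloid markers looked up were detected, with a summed level of 1324 to 1392 CPM (counts scaled to the size of the library) in DMSO, 2014 to 2130 CPM with MI-503 and 2257 to 4644 CPM in the combination. LYZ supplied 617 to 2600 CPM of the last sum, whereas MPO read 205 to 226 CPM with MI-503 and 106 to 162 CPM in the combination. Markers of other cell types summed to at most 3.57 CPM in any library once PECAM1, which myeloid cells can also express, was set aside, and MS4A1 stood at 0 in every library. PECAM1 itself went from 45.3 to 54.3 CPM in DMSO to 106 to 113 CPM with MI-503 and 129 to 190 CPM in the combination. The part of these marker changes in the results was not tested. Combination replicate 1 stood apart: of 10041 genes that averaged 5 CPM or more, 38 lay over 2-fold from the mean of the other combination libraries, none of them a member, and the same count was at most 12 in any other library. Members whose call against DMSO or MI-503 changed without it are named below, and several changes are given with and without it.

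In DMSO the members took 1.08% ± 0.0208 (SD, n = 4) of all counted fragments. This share fell to 0.837% ± 0.021 (n = 4) with MI-503 and to 0.719% ± 0.0059 (n = 3) in the combination, with no overlap between the groups. NPM1 and NCL alone made up 0.381% of the fragments in DMSO, and the other members together went from 0.702% to 0.532% and 0.458%. The structural proteins of the finished ribosome took 10.7% ± 0.366, 12.05% ± 0.525 and 11.5% ± 0.636 of the fragments in the same order. In bulk libraries, fewer cells of a kind and less RNA per cell cannot be told apart.

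**Figure D1:**
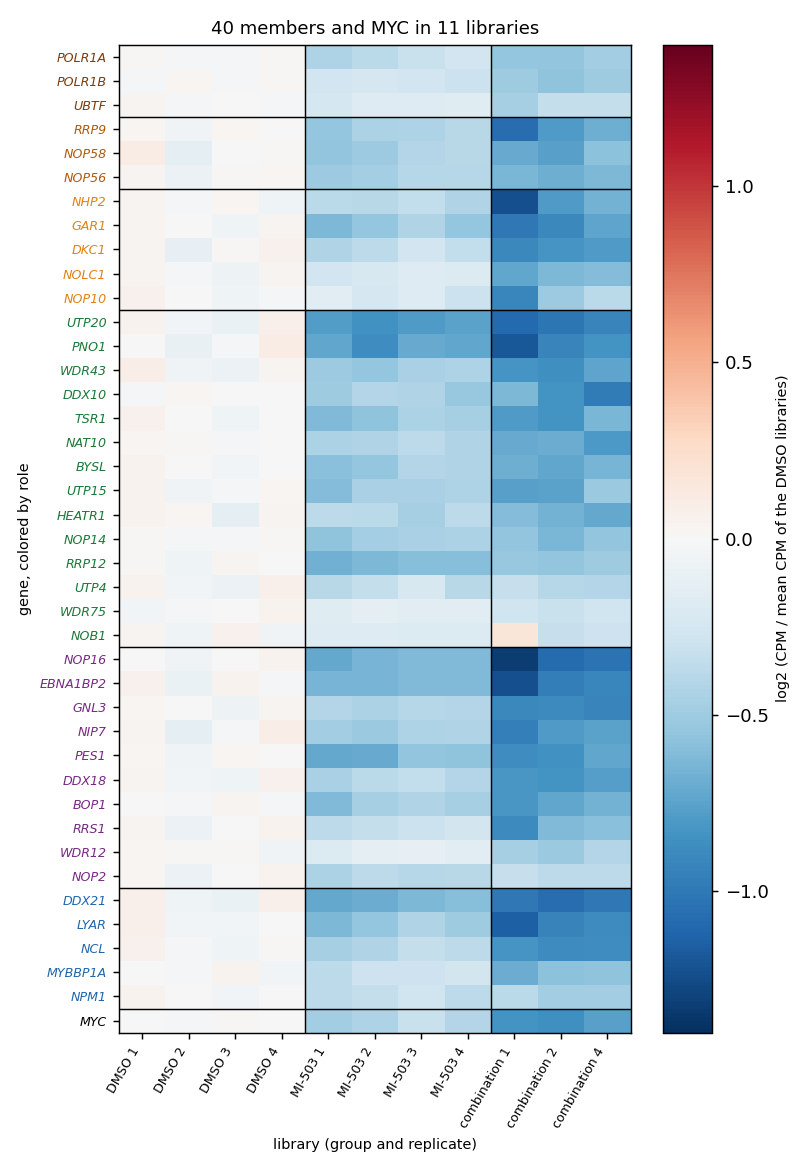
Each row is one of 40 members or MYC, each column one of the 11 libraries, and color gives the log2 ratio of the gene's CPM to its mean over the DMSO libraries. Row labels are colored by role from RNA polymerase I (top) through box C/D and box H/ACA snoRNP, small subunit, large subunit and nucleolar multifunctional genes to MYC (bottom). Blue deepens from the MI-503 to the combination columns in most rows, whereas RRP12, NOP2 and UTP4 keep about the same shade and NOB1 is red in combination replicate 1. FBL, with few counts, is left out.

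Levels per transcript length, in FPKM (CPM divided by the annotated exon length in kilobases), spanned a wide range in DMSO. NPM1, a histone and ribosome chaperone of the granular nucleolus, stood first at 828 FPKM, followed by NCL (nucleolin) at 517 FPKM, the helicase gene DDX21 at 185 FPKM and NOP56 at 177 FPKM. At the low end, among members annotated on a single contig, were WDR12 at 13.9 FPKM, POLR1B at 13.8 FPKM and UTP15 at 5.39 FPKM. The annotated length of FBL, UTP4 and BOP1 sums exons on 2 contigs, so that their FPKM are too low and are not ranked. Replicates lay close together, with a median coefficient of variation of 3.31% over 40 members in DMSO, 3.36% with MI-503 and 4.89% in the combination.

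Fragments that mapped to several places had been left out of the counts, which touches members with repeated sequence. RRN3, which brings RNA polymerase I to its initiation factors, had 6, 4, 6 and 2 counts in DMSO, 4, 10, 4 and 10 with MI-503 and 15, 7 and 10 in the combination. All of its 100-base exon windows occur again on another contig of hg38. FBL encodes fibrillarin, the methyltransferase of box C/D snoRNPs, and is annotated on 2 contigs. It had only 65 to 102 counts in DMSO, and whether its count is complete was not tested. UTP4 is on 2 contigs as well, with 77.8% of its windows repeated, and 11.3% of those of NPM1 and 13.9% of those of GNL3 recur elsewhere on the main chromosomes. Exons shared with a neighboring gene make up 44.0% of NHP2, 27.0% of TSR1 and 24.8% of HEATR1. The counts of these genes are therefore less certain.

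With MI-503 alone nearly the whole module was lower. This comparison with DMSO asks what Menin inhibition does to these genes. With edgeR's quasi-likelihood test at an adjusted p under 0.05, 39 of 41 members were lower and 0 were higher, whereas 29.3% of all tested genes were lower and 22.0% higher. No member was higher at an unadjusted p under 0.05 either (0 members), nor with DESeq2 or limma-voom (0 each). The members' median log2 fold change was -0.41, or 0.751 times the DMSO level, beside -0.03 over all tested genes. Combination replicate 1 is outside this comparison but enters the common fit. Without it the members' median was -0.37 and 40 members were lower, while 4141 instead of 3235 tested genes were higher. In 40 members, every MI-503 library lay below every DMSO library, as did 29.1% of tested genes. FBL and NOB1 were not called.

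The largest called falls were those of UTP20, PNO1 and DDX21. UTP20 (chr12:101280105-101386618, plus strand), a component of the small-subunit processome, measured 171, 160, 154 and 174 CPM in DMSO and 95.6, 91.6, 94.8 and 97.8 CPM with MI-503. The groups were far apart, and the log2 fold change was -0.79 (SE 0.05, edgeR adjusted p = 8.84e-10). PNO1 (chr2:68157830-68176238, plus strand), which helps the nuclease NOB1 mature the small subunit, went from 51.0, 47.0, 50.1 and 54.5 CPM to 30.6, 27.8, 31.1 and 30.5 CPM. Its change was -0.76 (SE 0.07, edgeR adjusted p = 1.38e-07). DDX21 (chr10:68956131-68985069, plus strand), an RNA helicase that acts at ribosomal RNA genes and in their processing, went from 974, 888, 872 and 979 CPM to 566, 574, 598 and 614 CPM. This is -0.66 on the log2 scale (SE 0.05, edgeR adjusted p = 8.05e-09).

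In the combination against DMSO, the falls were deeper for most members. Again 39 of 41 members were lower and 0 higher, beside 32.8% of tested genes lower and 31.7% higher. The count of higher members was also 0 at an unadjusted p under 0.05 and with DESeq2 or limma-voom. The median log2 fold change was -0.70 (0.617 times the DMSO level), beside 0.01 over all genes. Below every DMSO library lay all combination libraries of 40 members, as for 31.2% of tested genes. A fall of at least 2-fold was called for NOP16, EBNA1BP2, DDX21 and UTP20, that is 4 members, and for 3.34% of tested genes. This comparison has its DMSO libraries in common with the MI-503 comparison, so the pair is not independent.

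NOP16 (chr5:176383937-176388927, minus strand), a large-subunit factor, read 84.2, 81.0, 83.1 and 86.3 CPM in DMSO, 51.1, 53.4, 54.5 and 54.6 CPM with MI-503 and 33.2, 39.6 and 41.0 CPM in the combination. The 3 groups followed each other without overlap. The combination was lower than DMSO by -1.15 on the log2 scale (SE 0.06, edgeR adjusted p = 8.79e-11), and by -1.03 without combination replicate 1. EBNA1BP2 (chr1:43164174-43172570, minus strand), which takes part in large-subunit assembly, went from 120, 108, 119 and 113 CPM in DMSO through 73.1, 73.2, 74.8 and 74.5 CPM to 48.8, 58.9 and 61.0 CPM. Its log2 fold change was -1.04 (SE 0.06, edgeR adjusted p = 4.64e-10) and -0.92 without combination replicate 1, where it no longer reached a 2-fold fall. UTP20 likewise fell short of 2-fold without that library, at -0.95 against -1.01 with it. DDX21 measured 463, 443 and 465 CPM in the combination and differed from DMSO by -1.02 (SE 0.05, edgeR adjusted p = 4.24e-11).

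**Figure D2:**
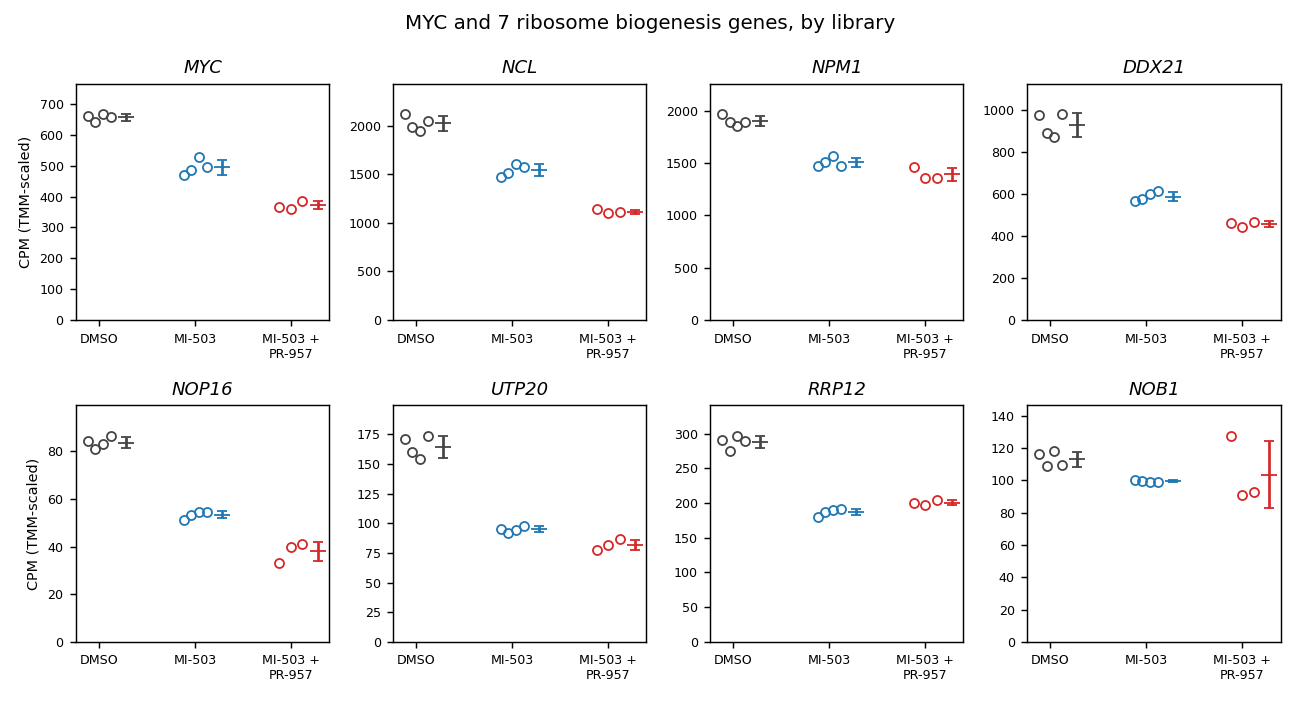
CPM (TMM-scaled, linear axis from 0) of MYC and 7 members in each library, with open circles for libraries and a bar with whiskers for the mean ± SD of 4 DMSO, 4 MI-503 and 3 MI-503 + PR-957 libraries. NCL and NOP16 step down from DMSO to MI-503 and again to the combination, as MYC does, whereas RRP12 drops from 275 to 296 CPM in DMSO to 180 to 191 CPM with MI-503 and reads 197 to 204 CPM in the combination. In NOB1 the combination library at 127 CPM is replicate 1.

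Adding PR-957 to MI-503 was compared directly, combination against MI-503. Here 35 of 41 members were lower, beside 23.8% of tested genes, and 0 were called higher, beside 23.6%. At an unadjusted p under 0.05, 1 member (RRP12) was higher, DESeq2 called 0 and limma-voom called 1. With the replicate number as a block, 34 were lower and 1, RRP12, higher. The median was -0.31 (0.807 times the MI-503 level), beside 0.00 over all genes. Without combination replicate 1, 36 members were lower and the median was -0.29. UTP15 and PNO1 then lost their call (with it, edgeR adjusted p = 0.0313 and 0.0242), whereas NOB1, NOP14 and NPM1 gained one. Groups were lower without overlap in 33 members (23.7% of tested genes) and higher without overlap in RRP12 alone (23.8% of tested genes). With all libraries, NOB1, NOP14, NOP2, NPM1, RRP12 and UTP4 were not called.

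The largest called fall was that of FBL, at -0.90 (SE 0.34, edgeR adjusted p = 0.0388), and it rested on a single library. FBL stood at 3.44, 2.99, 3.08 and 3.23 CPM in DMSO, at 2.27, 2.79, 7.80 and 2.46 CPM with MI-503 and at 2.43, 1.71 and 1.82 CPM in the combination. Without MI-503 replicate 3, the library at 7.80 CPM, the change was -0.31 (edgeR adjusted p = 0.161), and with the replicate number as a block it was -0.58 (edgeR adjusted p = 0.112). NHP2 (chr5:178149463-178153960, minus strand), a core protein of box H/ACA snoRNPs, came next with all libraries. It read 105, 101, 104 and 98.5 CPM in DMSO, 78.5, 78.4, 80.4 and 76.2 CPM with MI-503 and 43.5, 58.9 and 64.8 CPM in the combination. The log2 fold change from MI-503 was -0.50 (SE 0.09, edgeR adjusted p = 0.000212) and -0.36 without combination replicate 1. NOP16 fell by 0.50 on the log2 scale (SE 0.06, edgeR adjusted p = 5.73e-06), or by 0.43 without that library. Leaving it out changes the order, and GNL3 (-0.52), NCL (-0.51), DKC1 (-0.48), DDX10 (-0.48) and DDX18 (-0.44) then lie below NHP2 and NOP16.

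Short transcripts were low in combination replicate 1. Over the 10 members with under 2000 annotated exon bases, its log2 ratio to the mean of the other combination libraries had a median of -0.29, and 8 of the 10 were below that mean. Over 1407 tested genes of that length the median was -0.11. Over the 15 members with more than 4000 bases the median was -0.03, and over 5619 such genes it was 0.03. NHP2, NOP10, RRP9, NOP16, EBNA1BP2 and RRS1 are among the short members, and all were also called lower against MI-503 without that library.

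By role, the 3 tested genes of RNA polymerase I transcription were all lower in each comparison, with a median of -0.27 with MI-503, where the medians of the other role groups lay between -0.35 and -0.48. POLR1A, the largest subunit of the polymerase, measured 213, 207, 209 and 214 CPM in DMSO, 157, 163, 170 and 175 CPM with MI-503 and 144, 144 and 150 CPM in the combination. Its log2 fold changes from DMSO were -0.35 (SE 0.04, edgeR adjusted p = 2.11e-06) and -0.53 (SE 0.04, edgeR adjusted p = 1.45e-08). The second-largest subunit, POLR1B, read 111, 114, 110 and 113 CPM, then 92.9, 95.4, 93.3 and 91.3 CPM, then 79.7, 76.0 and 79.5 CPM. These groups did not overlap, with changes of -0.27 and -0.52 from DMSO. UBTF, which binds and opens the ribosomal RNA genes, went from 291, 281, 282 and 279 CPM through 239, 250, 250 and 252 CPM to 205, 225 and 225 CPM, changes of -0.19 and -0.38. All 3 were also lower in the combination than with MI-503 alone, by -0.18 for POLR1A, -0.25 for POLR1B and -0.18 for UBTF.

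Among the box C/D proteins, NOP56 and NOP58, the paired scaffold subunits, changed by -0.45 and -0.47 with MI-503 and by -0.65 and -0.68 in the combination against DMSO. RRP9, which marks the U3 snoRNP needed for the first cleavages, changed by -0.45 and -0.85. The box H/ACA group includes the pseudouridine synthase DKC1 with its partners GAR1, NHP2 and NOP10, and the nucleolar chaperone NOLC1. All 5 were lower in each of the 3 comparisons, with a median of -0.35 for MI-503 against DMSO, -0.84 for the combination against DMSO and -0.44 for the combination against MI-503. DKC1 went from 267, 241, 263 and 272 CPM in DMSO to 194, 202, 216 and 206 CPM with MI-503 and 139, 147 and 151 CPM in the combination, changes of -0.35 and -0.84 from DMSO. The MI-503 call of NOP10 was weak (-0.22, edgeR adjusted p = 0.0293) and was kept in 9 of 20 alternative settings, where the adjusted p ran from 0.00105 to 0.117.

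Small-subunit factors numbered 14, and 13 of them were lower with MI-503 (median -0.48), 13 in the combination against DMSO (median -0.68) and 10 in the combination against MI-503 (median -0.21). Beside UTP20 and PNO1, the falls with MI-503 ran from -0.62 in RRP12 to -0.15 in WDR75. TSR1 changed by -0.52, BYSL by -0.49, WDR43 by -0.48, UTP15 by -0.48, NOP14 by -0.48 and DDX10 by -0.46. The RNA acetyltransferase NAT10 changed by -0.41, HEATR1 by -0.39 and UTP4 by -0.34. NOB1, the nuclease that makes the mature end of small-subunit RNA, was an exception. It read 116, 109, 118 and 110 CPM in DMSO, 100, 99.9, 99.2 and 99.2 CPM with MI-503 and 127, 90.7 and 92.6 CPM in the combination. The combination library at 127 CPM exceeded all others. With it, the change with MI-503 was -0.19 (SE 0.08, edgeR adjusted p = 0.0599) and that in the combination -0.12 (SE 0.09, edgeR adjusted p = 0.218). Without it they were -0.14 (adjusted p = 0.00196) and -0.29 (adjusted p = 6.35e-06).

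All 10 large-subunit factors were lower in both comparisons with DMSO, with medians of -0.44 and -0.81, and 9 were lower in the combination than with MI-503 (median -0.38). PES1, BOP1 and WDR12 form one complex (PeBoW), yet with MI-503 they changed by -0.63, -0.49 and -0.15. Against DMSO, the same trio in the combination changed by -0.81, -0.74 and -0.47. GNL3 (nucleostemin), a GTP-binding protein of the nucleolus, read 226, 221, 211 and 228 CPM in DMSO, 167, 163, 168 and 167 CPM with MI-503 and 119, 119 and 117 CPM in the combination. Its changes from DMSO were -0.41 and -0.90. The helicase gene DDX18 changed by -0.40 and -0.81, NIP7 by -0.47 and -0.84, and RRS1, needed for loading the 5S particle, by -0.31 and -0.70.

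The 5 multifunctional nucleolar genes include the most abundant members. NCL, which binds ribosomal RNA precursors, measured 2118, 1991, 1945 and 2055 CPM in DMSO, 1471, 1511, 1609 and 1575 CPM with MI-503 and 1140, 1100 and 1108 CPM in the combination. The groups did not overlap, and the changes from DMSO were -0.40 (SE 0.04, edgeR adjusted p = 1.07e-06) and -0.86 (SE 0.05, edgeR adjusted p = 1.12e-10). NPM1 measured 1965, 1895, 1853 and 1893 CPM, then 1477, 1508, 1572 and 1473 CPM, then 1466, 1357 and 1357 CPM. With MI-503 its change was -0.34 (SE 0.04, edgeR adjusted p = 5.12e-06). From MI-503 to the combination its change was -0.11 (SE 0.05, edgeR adjusted p = 0.0517), and -0.18 without combination replicate 1 (edgeR adjusted p = 0.00151). LYAR, a nucleolar zinc finger protein, changed by -0.52 and -0.99 from DMSO and the MYB-binding protein gene MYBBP1A by -0.30 and -0.61.

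**Figure D3:**
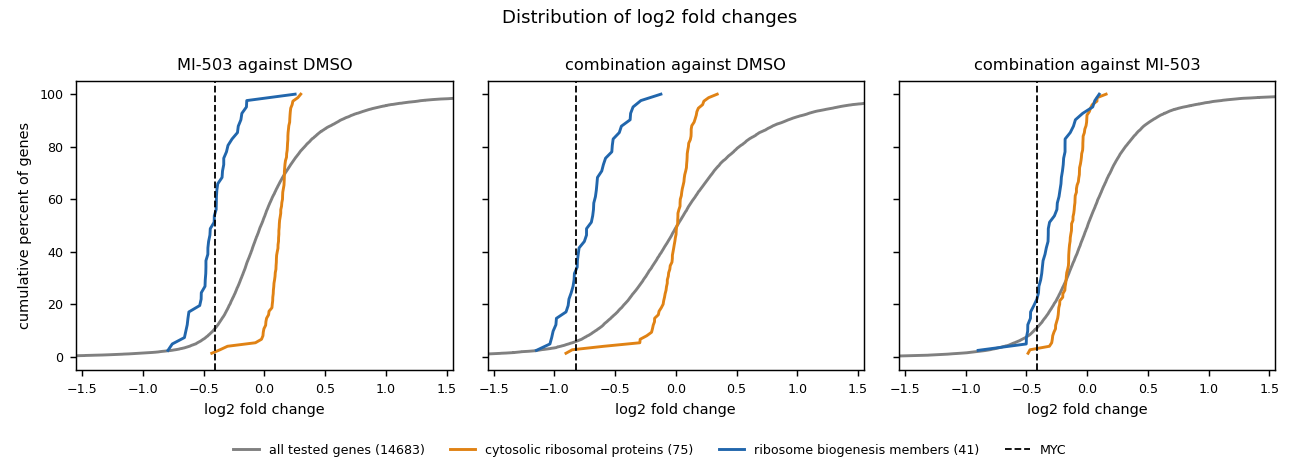
Cumulative percent of genes (vertical axis) against log2 fold change (horizontal axis) in the 3 comparisons, for all 14683 tested genes (gray), 75 cytosolic ribosomal protein genes (orange) and the 41 tested members (blue), with the change of MYC as a dashed line. The members' curve lies to the left of that of all genes, around medians of -0.41, -0.70 and -0.31, and MYC crosses it near its middle with MI-503 and nearer its lower end in the other panels.

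Whether a member moved as far when PR-957 was added as it had moved with MI-503 was tested as the difference of the 2 changes within the same edgeR fit. MI-503 libraries enter both changes, with opposite sign. The change on adding PR-957 was the more positive one in 13 members (19.2% of tested genes) and the more negative one in NOLC1 alone (16.0% of tested genes). Both shares take the difference with its sign, so genes that rose count in them too. The first count was 11 and the second 3 without combination replicate 1, and over all omissions of 1 library the counts ran from 6 to 14 and from 0 to 5. Of the 13, 6 were called under all 19 alternative settings run for this contrast, namely RRP12, UTP20, PNO1, PES1, NOP2 and NOP14.

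RRP12 (chr10:97356357-97401370, minus strand), a HEAT-repeat protein of ribosomal particle maturation and export, showed the largest difference. It read 290, 275, 296 and 290 CPM in DMSO, 180, 187, 190 and 191 CPM with MI-503 and 200, 197 and 204 CPM in the combination. Thus every combination library lay above every MI-503 library and below every DMSO library. The change with MI-503 was -0.62 (SE 0.04, edgeR adjusted p = 1.18e-09), that on adding PR-957 was 0.10 (SE 0.04, edgeR adjusted p = 0.0561), and they differed by 0.72 (edgeR adjusted p = 5.31e-07). With the replicate block, the change on adding PR-957 was 0.11 (edgeR adjusted p = 0.047). NOP2, a ribosomal RNA methyltransferase, read 138, 128, 136 and 140 CPM, then 99.2, 105, 103 and 104 CPM, then 108, 105 and 105 CPM. Its changes of -0.40 and 0.05 differed by 0.44 (edgeR adjusted p = 0.000142). For NOP14 the difference was 0.38 (edgeR adjusted p = 0.000425), for UTP20 0.58 (6.41e-05), for PNO1 0.53 (0.0033) and for PES1 0.45 (0.000665).

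The other 7 were NOP56 (0.24), UTP4 (0.30), BYSL (0.29), TSR1 (0.29), BOP1 (0.24), NPM1 (0.22) and DDX21 (0.30), with edgeR adjusted p-values from 0.0111 to 0.0334, and each lost its call under at least 1 setting. NOLC1 went from 466, 452, 435 and 469 CPM through 380, 391, 402 and 398 CPM to 275, 295 and 299 CPM. Its changes were -0.22 with MI-503 and -0.44 on adding PR-957, a difference of -0.22 (edgeR adjusted p = 0.0248) that was called under 16 of 19 alternatives.

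**Figure D4:**
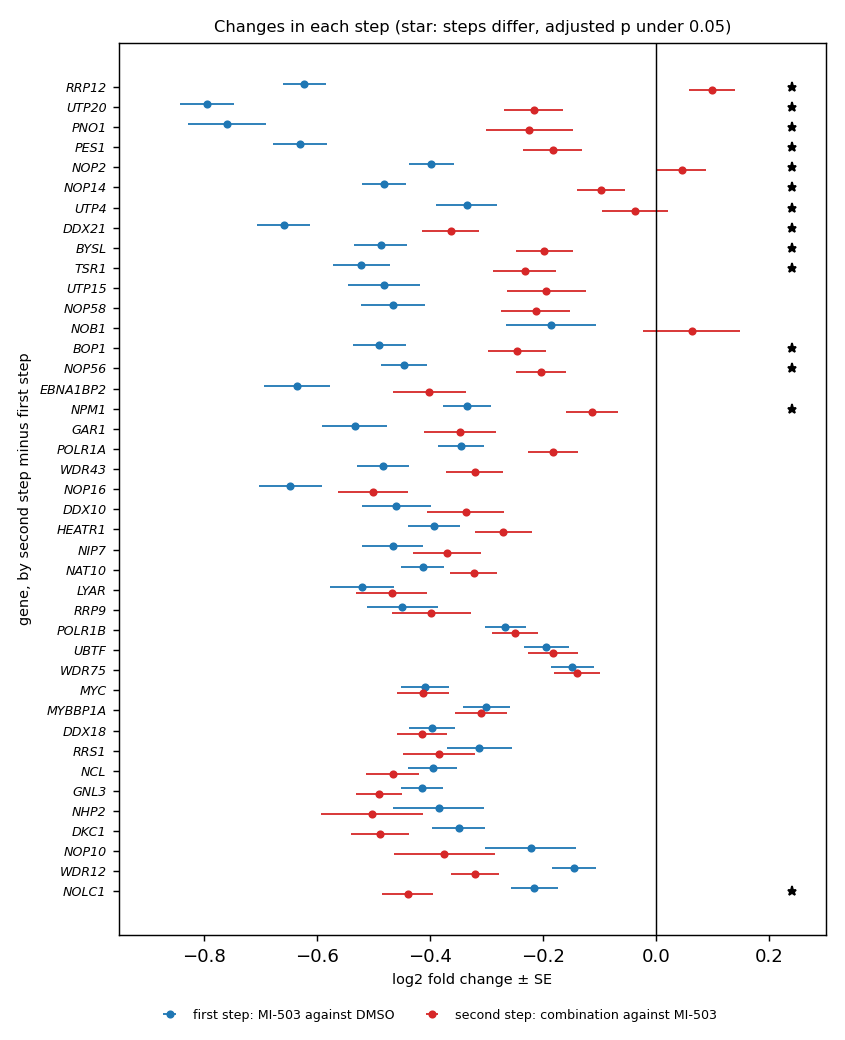
Log2 fold change ± SE of 40 members and MYC for MI-503 against DMSO (blue) and the combination against MI-503 (red), ordered by the difference between them. Stars mark genes in which the changes differ at an edgeR adjusted p under 0.05, with 13 members toward the top and NOLC1 at the bottom. MYC, at -0.41 in both, carries no star.

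The members were set beside MYC itself. MYC measured 660, 642, 666 and 659 CPM in DMSO, 469, 488, 528 and 495 CPM with MI-503 and 368, 361 and 387 CPM in the combination. The 3 groups were separate. Its log2 fold changes were -0.41 with MI-503 (SE 0.04, edgeR adjusted p = 5.71e-07), -0.82 in the combination against DMSO (SE 0.05, edgeR adjusted p = 1.54e-10) and -0.41 on adding PR-957 (SE 0.05, edgeR adjusted p = 1.88e-06). Each member was then set against MYC in the same library, with the MYC count in place of the library size, so that no scaling factor enters. Error in the MYC count is common to all these ratios.

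With MI-503, the ratio to MYC was higher in 9 members (67.7% of tested genes), lower in 9 (3.0% of tested genes) and not told apart from that in DMSO in 23. The 9 with a lower ratio, which fell by more than MYC, were UTP20, PNO1, DDX21, NOP16, EBNA1BP2, PES1, RRP12, GAR1 and TSR1, with ratios changed by between -0.38 and -0.11 on the log2 scale. A higher ratio was called in WDR12, WDR75, NOB1, UBTF, NOLC1, NOP10, POLR1B and MYBBP1A, with 0.11 to 0.26, and in FBL with 0.64 (edgeR adjusted p = 0.0473). The value of FBL rests on MI-503 replicate 3, where its ratio was 0.0148, against 0.0048 to 0.0057 in the other MI-503 libraries and 0.0046 to 0.0052 in DMSO.

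In the combination against DMSO, the ratio was higher in 18 members (86.1% of tested genes), lower in 5 (2.6%) and not told apart in 18. The 5 were NOP16 (-0.33, edgeR adjusted p = 8.78e-05), EBNA1BP2 (-0.22, 0.00459), DDX21 (-0.20, 0.00183), UTP20 (-0.19, 0.00479) and LYAR (-0.17, 0.0113). The ratio of NOP16 to MYC in CPM was 0.128, 0.126, 0.125 and 0.131 in DMSO, 0.109, 0.110, 0.103 and 0.110 with MI-503 and 0.0904, 0.110 and 0.106 in the combination. It was below the DMSO values in every treated library. Among the 18 with a higher ratio, NOB1 (0.70, with its library at 127 CPM included), WDR75 (0.53), NOP2 (0.47), UTP4 (0.45) and UBTF (0.44) had the largest ratio changes. UBTF read 0.441, 0.437, 0.424 and 0.423 of the MYC level in DMSO and 0.558, 0.623 and 0.582 in the combination.

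Several members kept close to MYC, with intervals that bound how far they can have departed. In 14 of 41 members the 95% interval lay within 0.25 on the log2 scale in both comparisons with DMSO. A higher ratio was called in both comparisons in 8 members and a lower one in 4. The shares of all tested genes were not determined for these counts. The members given next were chosen after their values were seen. For NCL the ratio changed by 0.01 with MI-503 (95% interval -0.08 to 0.11) and by -0.04 in the combination (-0.15 to 0.07), and in CPM it was 2.92 to 3.21 times MYC in DMSO, 3.05 to 3.18 times with MI-503 and 2.86 to 3.10 times in the combination. DDX18 changed by 0.01 (-0.08 to 0.10) and 0.01 (-0.09 to 0.11) relative to MYC. For GNL3 the values were 0.00 (-0.10 to 0.10) and -0.08 (-0.19 to 0.03), and for DKC1 they were 0.06 (-0.03 to 0.15) and -0.02 (-0.12 to 0.08).

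On adding PR-957 to MI-503, the ratio was higher in 19 members (67.5% of tested genes), not told apart in 22 and lower in 0 (3.19% of tested genes). The 19 include NOB1, NOP14, NOP2, NPM1, RRP12 and UTP4, whose own change was not called. The count of lower ratios was also 0 at an unadjusted p under 0.05 in edgeR and with limma-voom, and 1 without a filter on low counts. RRP12 departed most, with a ratio of 0.440, 0.429, 0.445 and 0.439 in DMSO, 0.384, 0.383, 0.361 and 0.385 with MI-503 and 0.544, 0.545 and 0.527 in the combination. It was thus below the DMSO range with MI-503 and above it in the combination.

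**Figure D5:**
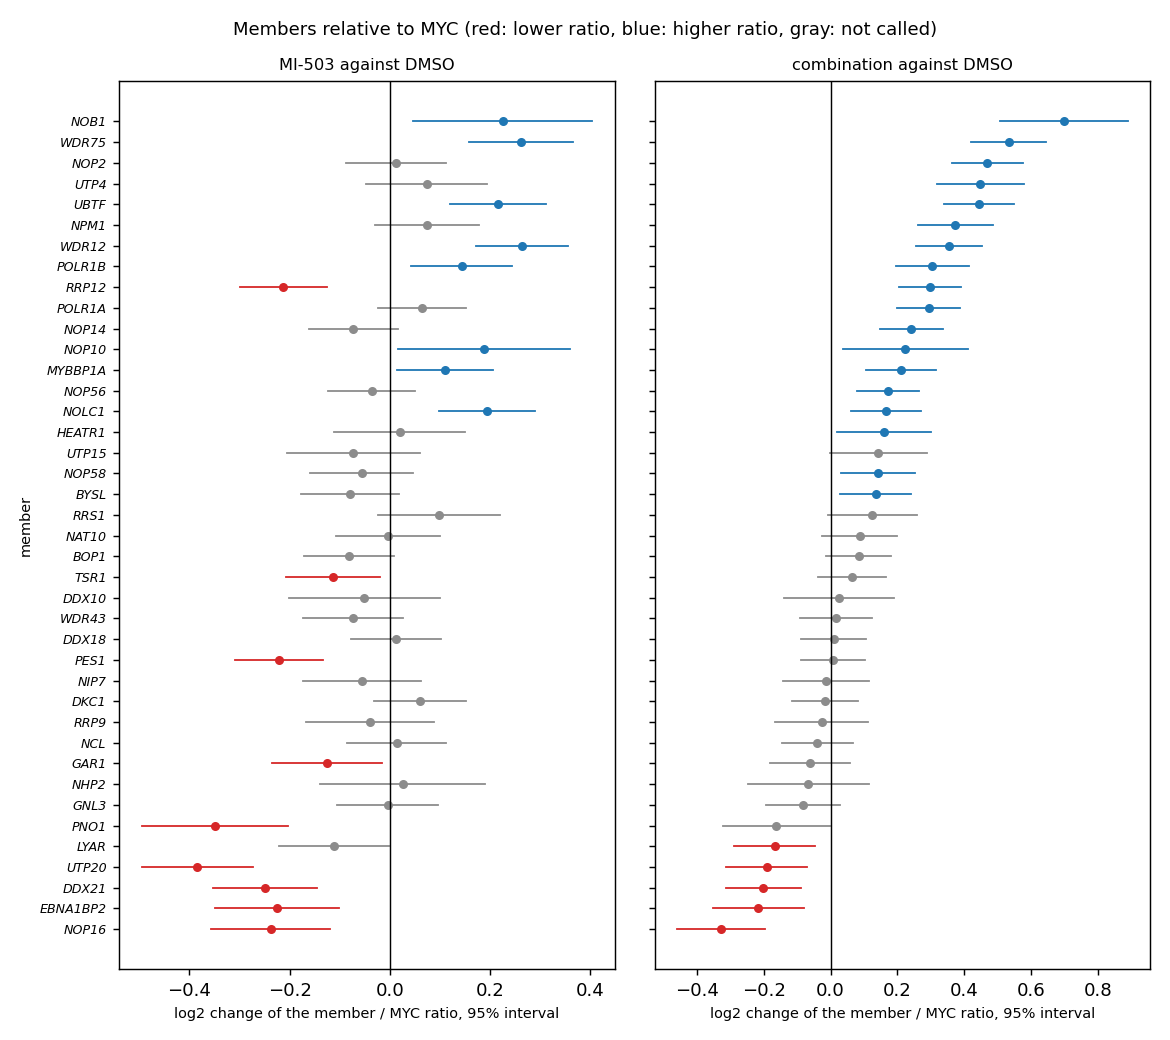
Log2 change of the ratio of each of 40 members to MYC with its 95% interval, for MI-503 against DMSO (left) and the combination against DMSO (right), in the order of the right panel; the panels have different horizontal scales. Red members have a lower and blue ones a higher ratio to MYC, each at an edgeR adjusted p under 0.05, and gray ones were not called. NOP16 is lowest in the right panel at -0.33 and NOB1 highest at 0.70, and RRP12 is red on the left and blue on the right.

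Other genes of ribosome production were read from 3 further lists with 77 genes in all, all tested. With MI-503, 68 were lower and 0 higher (edgeR, also 0 at an unadjusted p under 0.05). In the combination against DMSO 60 were lower and 4 higher, and on adding PR-957 37 were lower and 11 higher, with medians of -0.35, -0.50 and -0.12. Over all tested genes the shares lower and higher were 29.3% and 22.0%, 32.8% and 31.7%, and 23.8% and 23.6%. Of 11 other RNA polymerase I genes, 7 were lower with MI-503 and 8 in the combination against DMSO, where CD3EAP, a polymerase I subunit gene, changed by -1.04 and POLR1E by -0.66. Of 31 other small-subunit factors, 29 and 26 were lower, led by RCL1 (-1.08 in the combination) and WDR3 (-0.96). Of 35 other large-subunit factors, 32 and 26 were lower, led by MRTO4 (-1.14) and BRIX1 (-0.93). Higher in the combination against DMSO were 2 polymerase I genes (at most 0.40, TAF1D) and 2 large-subunit factors (at most 0.30, EIF6). On adding PR-957, 6, 17 and 14 genes of the 3 lists were lower and 2, 2 and 7 higher. Their medians were -0.22, -0.14 and -0.07, and the large-subunit factor EFL1 reached 0.46. Of the 10 large-subunit members, 9 were lower in that comparison (median -0.38).

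Of the genes for cytosolic ribosomal proteins, the structural parts of the ribosome, 75 were tested. With MI-503, 3 were lower and 36 higher, beside 29.3% and 22.0% of all tested genes, and the higher genes numbered 60 with upper-quartile factors and 59 with library totals only. In the combination against DMSO 12 were lower and 11 higher, beside 32.8% and 31.7%, but 7 and 25 with upper-quartile factors and 6 and 34 with library totals. On adding PR-957 32 were lower and 0 higher, beside 23.8% and 23.6% (edgeR, 0 at an unadjusted p under 0.05), or 18 and 1 with library totals. RPS26 (-0.90) and RPS10 (-0.85) had the largest falls in the combination against DMSO. RPS10 averaged only 6.68 CPM in DMSO, 5.20 CPM with MI-503 and 3.69 CPM in the combination. Fragments with several map positions or genes were left out here too, and whether the counts of this list are complete was not tested.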

How the data were processed

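RNA sequencing was done on polyA RNA of MOLM-13 cells (TruSeq libraries). Per the file headers and labels, the authors trimmed reads with Trimmomatic 0.39, aligned them with STAR 2.7.10a to hg38 and counted fragments per gene over RefSeq exons with featureCounts 2.0.1, without strand and leaving out fragments with several map positions or genes. The deposited values are these raw counts. A filter on alignments is named in the headers, but its rule is not. Deposited tables of DESeq2 log2 fold changes, standard errors and p-values were not used.

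Groups followed the labels. All 11 libraries entered 1 edgeR 4.0.16 model (R 4.3.3; TMM factors 0.956 to 1.056, filterByExpr with minimum count 10, common dispersion 0.00378, 8 residual degrees of freedom). Quasi-likelihood tests were two-sided. P-values were adjusted by Benjamini-Hochberg across the 14683 tested genes and called under 0.05. In ratios to MYC, the MYC count replaced the library size. The script was tested on simulated data. CPM are TMM-scaled, except those of markers, which use library totals. FPKM use annotated exon length. Depth was 18.9 to 41.2 M fragments, and among members FBL and RRN3 had few counts.

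The members and all lists were chosen with earlier results of these data known. Per-library values are given for NPM1, NCL, FBL, the RNA polymerase I genes and the 3 largest called falls of each comparison, and further members were chosen after their values were seen. Of each other list the 2 largest called changes in the combination against DMSO are named, and a few further genes were added after their values were seen. Alternatives were RLE factors, upper-quartile factors, library totals, no filter, a stricter filter (5 CPM in 3 libraries), DESeq2 1.42.0, limma-voom (limma 3.58.1), only the groups compared, an adjusted p under 0.01, a replicate block and leaving out each library. The gene lists were run under the scaling alternatives and the block only. Deviations from the group means correlated between -0.252 and 0.285 in 10 same-number pairs of libraries, over 0.1 in 6 of them and in 9 of 30 pairs with different numbers. In the 3 same-number pairs of MI-503 and combination libraries every correlation exceeded 0.1 (0.141 to 0.211), so blocked values stand beside that comparison where a call changes. The labels do not say what a number stands for, and pairs with DMSO did not meet this bar. Repeats of exon sequence were found by exact 100-base windows in hg38. Drawings used matplotlib 3.10.9.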

Additional observations from a re-analysis of the deposited data

Results flagged for a closer look

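Single libraries far from the rest of their group were looked for in the 4 DMSO and the 4 MI-503 libraries of each member and MYC (84 groups), by the gap of the highest or lowest library over the whole range. Chance alone gives about 1 such group in 20, and 7 were found. In MI-503 replicate 1, UBTF was low at 238.7 CPM (the others 250.01 to 251.81 CPM) and UTP15 at 18.98 CPM (21.18 to 21.49 CPM). FBL was high at 7.804 CPM in MI-503 replicate 3, against 2.268 to 2.79 CPM. HEATR1 was low in DMSO replicate 3 at 236.1 CPM, against 263.7 to 266.7 CPM, and in MI-503 replicate 3 at 187.4 CPM, against 199.29 to 199.97 CPM. PNO1 was low in MI-503 replicate 2 at 27.75 CPM, against 30.54 to 31.09 CPM. WDR12 was low in DMSO replicate 4 at 108.3 CPM, against 113.3 to 114.1 CPM. In UBTF, UTP15, HEATR1, PNO1 and WDR12, the DMSO and MI-503 libraries still did not overlap.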

How the results depend on the processing

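Over the 3 comparisons, single members gave 2457 changes under alternatives, of which 2382 kept direction and side of the threshold, 43 lost the call, 28 gained it and 4 reversed. The reversals were UTP4 in the combination against MI-503 with library totals (0.0204) and without MI-503 replicate 3 (4e-04; omissions gave -0.0936 to 4e-04), FBL with MI-503 (-0.336 to 0.4219, lowest without MI-503 replicate 3) and NOB1 in the combination against MI-503 (omissions gave -0.1465, without combination replicate 1, to 0.1085, and library totals 0.1193). The cause was not tested. WDR75 and WDR12 lost their MI-503 call with upper-quartile factors, no filter or the stricter filter. Over the alternatives, the MI-503 change of WDR12 ran from -0.16 to -0.08 and that of MYC from -0.44 to -0.34.

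Members lower than DMSO or MI-503 stayed within 1.5 times under every alternative. In the combination against MI-503, 1 member was higher with upper-quartile factors, the stricter filter or limma-voom, 2 with library totals, and 0 to 1 with a library left out. Members whose change was more negative on adding PR-957 than with MI-503 numbered 2 with DESeq2, RLE or upper-quartile factors or no filter, 3 with the stricter filter, 0 under 0.01 and 0 to 5 with a library left out. Those with a less negative change numbered 6 under 0.01 and 6 to 14 with a library left out. Members with a higher ratio to MYC with MI-503 numbered 4 under 0.01 and 5 to 10 with a library left out. Without a filter 1 had a lower ratio to MYC in the combination against MI-503.

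With upper-quartile factors, cytosolic ribosomal protein genes were higher in 60 (MI-503), and lower in 7 and higher in 25 (combination against DMSO). With library totals these were 59, 6 and 34, and against MI-503 18 were lower and 1 higher. Other large-subunit factors higher in the combination against DMSO were 4 with either, and 9 were lower against MI-503 with library totals.

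With the replicate block, 40, 39 and 34 members were lower in the 3 comparisons, 1 was higher in the combination against MI-503, and 4 MYC network genes were lower with MI-503. Beside RRP12 and FBL, named above, it changed 1 member's call, that of NOB1 with MI-503 (-0.18, edgeR adjusted p = 0.0324). Of 11 libraries, 4 correlated best with their own number.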

Other observations

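Genes of the MYC network and other known MYC targets were read beside the ribosome biogenesis genes. The 10 network genes include MYC itself, which is among the lower genes of each comparison. Of the 10, 2 were lower and 4 higher with MI-503, 3 and 4 in the combination against DMSO, and 4 and 3 in the combination against MI-503. The shares of all tested genes were 29.3% lower and 22.0% higher, 32.8% and 31.7%, and 23.8% and 23.6%. MXD1, a MAX partner that opposes MYC, rose from 20.7 ± 2.09 CPM (SD, n = 4) in DMSO to 31.9 ± 1.59 CPM (n = 4) with MI-503 and 52.2 ± 3.25 CPM (n = 3) in the combination, log2 fold changes of 0.63 (edgeR adjusted p = 1.11e-06) and 1.33 (edgeR adjusted p = 7e-11) from DMSO. MXD4, of the same family, stood at 56.4 ± 3.83 CPM in DMSO and 59.8 ± 1.37 CPM with MI-503, a change of 0.09 (edgeR adjusted p = 0.181). In the combination it reached 104 ± 6.06 CPM, 0.80 above MI-503 (edgeR adjusted p = 4.79e-09). MXI1 and MXD3, also of this family, went the other way on adding PR-957. With MI-503 they changed by 0.37 and 0.39. On adding PR-957, MXI1 changed by -0.23 (edgeR adjusted p = 0.00241) and MXD3 by -0.22 (edgeR adjusted p = 0.0235). MAX itself read 32.0, 31.2 and 30.9 CPM on average in the 3 groups and was not called in any comparison.

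Of 12 other MYC targets, 12 were lower with MI-503, 12 in the combination against DMSO and 11 in the combination against MI-503. The shares of all tested genes that were lower were 29.3%, 32.8% and 23.8%. In each comparison 0 targets were higher, beside 22.0%, 31.7% and 23.6% of all tested genes. The targets' medians were -0.44, -0.80 and -0.37. LDHA, lactate dehydrogenase A, went from 1015 ± 45.2 CPM in DMSO to 501 ± 27.8 CPM and 338 ± 26.6 CPM, changes of -1.02 and -1.59. NME1, a nucleoside diphosphate kinase, changed by -0.68 and -1.16.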
